A study of Mus musculus with 18 samples.

Results

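The 44 genes described here carry out DNA replication and mitosis and are widely read as a measure of how many cells in a sample are dividing. They were taken by symbol from the count tables, through the Ensembl gene IDs of GENCODE M21, and make up 44 of 56748 gene IDs counted. By the phase in which each gene's product is known to act, 16 were grouped as S genes (DNA replication and the step into it), 27 as G2/M genes (mitosis and the approach to it), and Stmn1, which encodes the microtubule regulator stathmin, was kept apart.

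The samples were 18 RNA-seq libraries of freshly isolated CD8 T cells, sorted from the spleen of wild-type (WT) mice, with 6 libraries for each of 3 diets. In the HFD group the mice ate a high fat diet for 12 weeks. In the SW (switched) group, 6 weeks on high fat food were followed by 6 on normal food, and in the ND group the mice ate normal food for all 12 weeks. The labels used here give neither strain nor age, and nothing in them ties each library to a mouse of its own. The p-values below therefore measure the spread between libraries, which may be partly technical.

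A resting T cell in the spleen sits outside the cell cycle until its receptor meets antigen. On entering the cycle it first makes cyclin E and the replication proteins, loads the MCM helicase on origins and copies its DNA (S phase), and then makes cyclins A and B, Cdk1, the Aurora and Polo kinases, kinesins and checkpoint proteins, which build the spindle and part the chromosomes (G2/M). The first wave is known to be driven by E2F factors. The second is known to be controlled by the MuvB complexes through a short promoter element, the cell cycle genes homology region (CHR), often near CCAAT boxes that NF-Y binds. MCM helicase subunits and PCNA are also present in cells that have not yet started to replicate, whereas mitotic messages are made mostly in cells in cycle.

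The RefSeq promoter table (build GRCm38.p6) held a window for 37 of the 44 genes, 14 S and 23 G2/M. In the 250 bases before the annotated start, the CHR letters (TTTGAA or TTCGAA, on either strand) were found in 10 of 23 G2/M genes (43.5%), in 3 of 14 S genes (21.4%) and in 17.4% of the 27025 genes in the table. E2F letters (TTTCCCGC, TTTGGCGC, TTTCGCGC or TTTGCCGC, on either strand) were found in 1 of 23 G2/M genes (4.35%), in 4 of 14 S genes (28.6%) and in 1.91% of all genes. CCAAT on either strand was found in 20 of 23 G2/M genes (87%), in 10 of 14 S genes (71.4%) and in 34.5% of all genes. These are matches of letters only, and a window without a match says nothing about the factor.

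The 140 bases before the start of 5 genes are printed below to show how these letters lie in genes described in the results: Top2a, Mki67 and Bub1b for G2/M, and Mcm6 and Mcm5 for S. They lie at chr11:99024190-99024329 (minus strand), chr7:135716380-135716519 (minus), chr2:118598071-118598210 (plus), chr1:128359706-128359845 (minus) and chr8:75109369-75109508 (plus). Capitals mark CHR, E2F and CCAAT letters on either strand. CCAAT read on the other strand appears as ATTGG, and TTTGAA as TTCAAA.
Top2a: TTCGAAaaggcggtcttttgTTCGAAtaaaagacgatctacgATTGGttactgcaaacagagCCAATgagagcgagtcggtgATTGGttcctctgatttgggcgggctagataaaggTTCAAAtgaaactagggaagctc
Mki67: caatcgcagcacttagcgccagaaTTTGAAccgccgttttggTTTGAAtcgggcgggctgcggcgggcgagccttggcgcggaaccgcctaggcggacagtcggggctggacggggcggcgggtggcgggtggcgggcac
Bub1b: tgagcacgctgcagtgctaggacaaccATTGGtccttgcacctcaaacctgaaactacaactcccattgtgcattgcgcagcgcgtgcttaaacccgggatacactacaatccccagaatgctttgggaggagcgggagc
Mcm6: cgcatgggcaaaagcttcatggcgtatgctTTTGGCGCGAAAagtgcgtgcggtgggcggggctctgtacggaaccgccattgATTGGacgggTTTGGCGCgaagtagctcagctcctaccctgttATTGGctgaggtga
Mcm5: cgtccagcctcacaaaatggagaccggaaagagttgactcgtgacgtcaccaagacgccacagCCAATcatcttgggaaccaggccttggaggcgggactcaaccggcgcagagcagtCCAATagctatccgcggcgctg
The Top2a window holds 3 CHR matches, starting 140, 120 and 23 bases before the start, and 3 CCAAT matches between them, while the Mki67 window holds 2 CHR matches. The Mcm6 window holds 3 E2F matches, the first 2 of which overlap. Bub1b shows 1 CCAAT match and Mcm5 shows 2 in the printed stretch, and neither shows CHR or E2F letters there: the 1 CHR match of Bub1b and the 2 E2F matches of Mcm5 lie farther upstream.

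Total counts ran from 11947339 to 16398340 per library, and all 44 genes passed the filter on low counts, with 13690 genes tested. The markers of the labelled cell type were present in every library: Cd8a, Cd8b1, Cd3d, Cd3e and Cd3g together held 4121 to 4557 CPM (counts scaled to the normalised library size) in HFD libraries, 4153 to 4505 in SW libraries and 4167 to 4547 in ND libraries. Across all genes, the second principal component, with 12% of the variance, put replicates 1 and 2 of every diet at 5.58 or higher and replicates 3 to 6 at 4.59 or lower, and HFD 1 stood farthest out at 31.1. The first component, with 13.4%, set HFD 4 apart at 55.0, with the other libraries at 6.31 or lower. What the replicate numbers stand for is not stated, so results are also given for HFD without HFD 1 and within replicates 3 to 6. How reads shared with a processed copy were counted is not given in the sources used here: Ccnb2-ps held up to 136 counts in a library, against 42 to 120 for Ccnb2, Ccnb1-ps up to 11, against 17 to 78 for Ccnb1, and Pcna-ps2 up to 30, against 1245 to 1982 for Pcna. Values of Ccnb2 and, to a lesser degree, Ccnb1 are uncertain for that reason. Strand is not stated either, so antisense reads may be counted with a gene.

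On the length-scaled level (the authors' FPKM, averaged over 18 libraries), the MCM subunits, Pcna and the cyclin gene Ccne1 were above every G2/M gene. The other S genes lay within the G2/M range. The S genes had a median of 7.41 and ran from 0.595 for Cdc6, which loads the helicase on origins, to 47.2 for Pcna, the sliding clamp of the replication fork. The 6 subunits of the MCM helicase, Mcm2 to Mcm7, lay between 11.5 and 27.6 FPKM. The G2/M genes had a median of 1.11 FPKM and ran from 0.239 for the kinetochore protein gene Cenpf to 5.28 for Cenpa, which encodes the centromeric histone H3 variant. The proliferation marker Mki67 was at 3.01 FPKM and Top2a, the topoisomerase that untangles chromosomes, at 3.18. Low levels leave some genes with few reads: Cdkn3, which encodes a phosphatase of Cdk1 and Cdk2, had 4 to 28 counts per library, Ccnb1 had 17 to 78, and Mki67 had 260 to 860.

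The comparison of HFD with ND asks what 12 weeks of high fat diet did to these genes. None of the 44 passed the test (edgeR's quasi-likelihood test, Benjamini-Hochberg adjusted p under 0.05 over all 13690 genes), where 1.62% of all genes did; DESeq2 called none of them either. Fold changes nevertheless lay mostly above 0: for 26 of 27 G2/M genes, with a median log2 fold change of 0.34, and for 13 of 16 S genes, with a median of 0.06, against 0.01 over all genes tested. At an unadjusted p under 0.05, 6 G2/M genes and 1 S gene were higher in HFD and none of the 44 was lower, where 7.79% of all genes were higher and 7.09% lower. In bulk RNA, more dividing cells and more message per dividing cell cannot be told apart.

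Ccnb1 (ENSMUSG00000041431, chr13:100778650-100786570), the cyclin that drives entry into mitosis, had the largest fold change of the cyclins among the 44. It held 1.14 at the lowest, 3.44 at the median and 5.30 CPM at the highest in HFD libraries, against 1.19, 1.47 and 1.63 CPM in ND libraries. HFD 1 to HFD 4 all lay above every ND library, while HFD 5 and HFD 6 lay below every ND library, so the groups overlapped. Its log2 fold change was 1.08 (SE 0.34; edgeR adjusted p = 0.106). Without HFD 5 it passed, at 1.25 with an adjusted p of 0.0460.

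Bub1b (ENSMUSG00000040084, chr2:118598211-118641591), a kinase-like protein of the spindle checkpoint, had the smallest p of the 44. Its level was 4.54, 6.51 and 10.6 CPM (lowest, median, highest) in HFD libraries, against 3.58, 4.94 and 5.19 CPM in ND libraries. HFD 1 to HFD 5 were above every ND library and HFD 6 was among them. The log2 fold change was 0.63 (SE 0.19; edgeR adjusted p = 0.0945).

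Ccna2 (ENSMUSG00000027715, chr3:36564865-36572150), the cyclin of S phase and G2, was at 4.14, 7.36 and 11.7 CPM in HFD libraries and at 2.30, 5.08 and 5.57 CPM in ND libraries. HFD 6 was again within the ND range, and the other 5 HFD libraries were above it. The log2 fold change was 0.69 (SE 0.23; edgeR adjusted p = 0.144). Cdkn3 (log2 fold change 1.10, SE 0.40), Ube2c, the ubiquitin-conjugating enzyme of the anaphase-promoting complex (0.75, SE 0.28), and Cdc20, that complex's activator (0.34, SE 0.16), made up the 6 G2/M genes at an unadjusted p under 0.05, with edgeR adjusted p-values of 0.174 to 0.328.

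The widely used proliferation markers Mki67 and Top2a varied more among HFD libraries than among ND libraries. Mki67 (ENSMUSG00000031004, chr7:135689784-135716361) was at 24.2, 29.8 and 58.4 CPM in HFD libraries, against 22.2, 27.1 and 30.2 CPM in ND libraries. Top2a (ENSMUSG00000020914, chr11:98992943-99024189) was at 22.2, 29.6 and 45.4 CPM in HFD libraries, against 20.8, 26.3 and 30.5 CPM in ND libraries. HFD 1 to HFD 3 were above every ND library for both genes, and HFD 4 to HFD 6 were within the ND range. The log2 fold changes were 0.36 (SE 0.19) for Mki67 and 0.30 (SE 0.16) for Top2a, with edgeR adjusted p-values of 0.398 and 0.405.

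Cdk1, the kinase that cyclins A and B activate, was at 2.54, 3.04 and 6.93 CPM in HFD libraries, against 2.00, 2.66 and 4.02 CPM in ND libraries (log2 fold change 0.32, SE 0.26). Birc5, the survivin subunit of the chromosomal passenger complex, was at 4.65, 5.23 and 7.74 CPM in HFD libraries, against 1.57, 4.81 and 6.83 CPM in ND libraries (0.30, SE 0.28). Plk1, the Polo-like kinase of centrosomes and kinetochores, was at 3.00, 3.73 and 7.54 CPM in HFD libraries, against 3.21, 4.06 and 5.58 CPM in ND libraries (0.14, SE 0.26). For these 3 genes the ND range covered at least 3 of the HFD libraries, and the edgeR adjusted p-values were 0.607, 0.672 and 0.855.

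The G2/M genes were also summed by the part of mitosis they serve, with no test between the parts. Cyclins A and B with Cdk1 and Cdkn3 (5 genes) totalled 21.6 ± 7.24 CPM in HFD libraries and 14.2 ± 2.38 CPM in ND libraries (SD, n = 6 each), and the spindle checkpoint and anaphase-promoting genes Bub1, Bub1b, Cdc20 and Ube2c totalled 24.0 ± 7.45 CPM in HFD and 16.9 ± 2.35 CPM in ND. The mitotic kinase genes Aurka and Plk1 with Tpx2, which activates Aurora A, totalled 15.0 ± 5.40 CPM in HFD libraries and 13.5 ± 2.27 CPM in ND libraries. The 4 kinesins (Kif11, Kif20a, Kif23 and Kif2c), which move and shape the spindle, totalled 47.3 ± 7.95 CPM in HFD and 44.1 ± 3.69 CPM in ND. Most of the kinesin sum was Kif23, at a mean of 32.9 CPM in HFD and 32.5 CPM in ND (log2 fold change 0.02), while Kif11 and Kif2c had log2 fold changes of 0.44 and 0.41. Fold changes of the remaining G2/M genes ran from -0.02 for Aurka to 0.53 for Aurkb, and none passed the test.

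Log2 fold changes of the S genes ran from -0.17 for Ccne2 to 0.32 for Tk1, and Uhrf1 was nearest its ND level, at 0.0047. Mcm5 (ENSMUSG00000005410, chr8:75109569-75128439) was the S gene with the smallest p, at 58.4, 67.8 and 81.9 CPM in HFD libraries, against 56.0, 61.1 and 66.9 CPM in ND libraries. HFD 3 and HFD 6 were within the ND range and the other 4 were above it. Its log2 fold change was 0.15 (SE 0.07; edgeR adjusted p = 0.330). The other 5 MCM subunits had log2 fold changes from 0.02 to 0.06, and the 6 together held 524 ± 24.1 CPM in HFD and 506 ± 18.4 CPM in ND (SD, n = 6 each).

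The rest of the S genes gave no call either. Tk1, the thymidine kinase of dividing cells, was at 5.41, 7.26 and 12.5 CPM in HFD libraries, against 5.54, 6.50 and 8.02 CPM in ND libraries (log2 fold change 0.32, SE 0.18; edgeR adjusted p = 0.414), with HFD 4, HFD 1 and HFD 3 above every ND library. Cdc45, which joins the MCM ring in the active helicase, was at 4.01, 5.01 and 5.74 CPM in HFD libraries, against 3.07, 4.04 and 4.60 CPM in ND libraries (log2 fold change 0.32, SE 0.17; edgeR adjusted p = 0.391), and 6 of 6 HFD libraries lay above the ND mean. Cdc6 was at 1.53, 3.87 and 4.55 CPM in HFD libraries, against 1.79, 3.07 and 3.88 CPM in ND libraries (0.22, SE 0.26). Those 2 genes had overlapping groups, and Cdc6 spread widely in each diet. Rrm2, the inducible subunit of ribonucleotide reductase, was at 8.34, 11.8 and 21.4 CPM in HFD libraries, against 9.75, 10.4 and 12.9 CPM in ND libraries (0.24, SE 0.18). Tyms, which makes thymidylate, was at 5.82, 7.22 and 9.71 CPM in HFD libraries, against 5.57, 7.03 and 8.41 CPM in ND libraries (0.11, SE 0.15). In Rrm2, HFD 1 and HFD 2 lay above every ND library and HFD 5 below.

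Ccne1 and Ccne2, the cyclins E of the G1/S step, and Pcna were the 3 S genes with a negative fold change. Ccne1 was at 14.9, 24.2 and 26.9 CPM in HFD libraries, against 21.6, 25.2 and 31.2 CPM in ND libraries (log2 fold change -0.13, SE 0.13), and Ccne2 was at 2.24, 3.32 and 4.63 CPM in HFD, against 3.26, 3.69 and 4.09 CPM in ND (-0.17, SE 0.19). Uhrf1, which guides the copying of DNA methylation, was at 16.8, 20.6 and 27.1 CPM in HFD libraries, against 19.4, 19.9 and 23.3 CPM in ND libraries, and Stmn1 was at 21.5, 24.6 and 31.2 CPM in HFD, against 21.5, 25.3 and 29.1 CPM in ND. The fold changes of those 2 genes rounded to 0.00 and turned negative when a single library was left out. All 4 genes had overlapping groups.

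**Figure D1:**
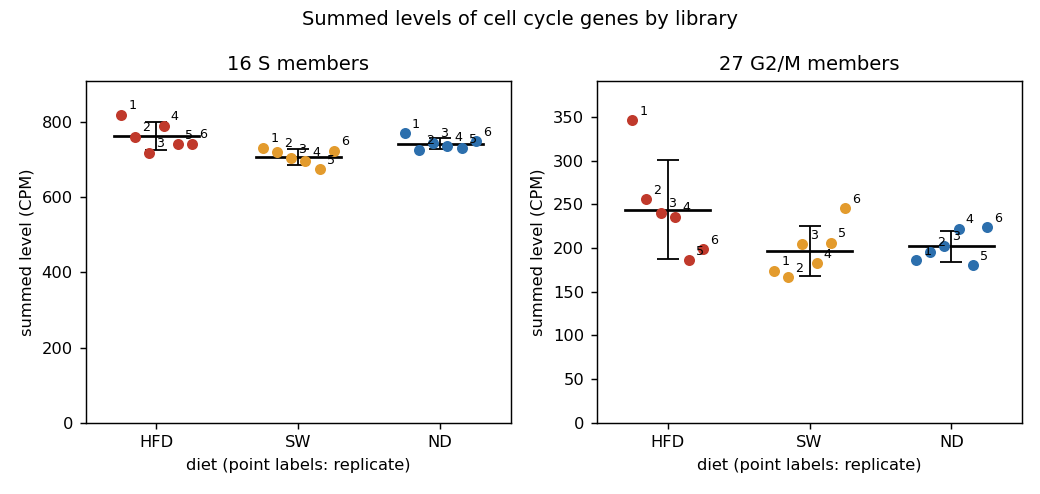
Summed CPM of the 16 S genes (left) and the 27 G2/M genes (right) in each library by diet, with the replicate number beside each point, the mean as a bar and the SD as whiskers (n = 6). The G2/M sum of HFD 1, 347 CPM, is the highest of the 18, and HFD 5 and HFD 6 lie within the ND range.

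The libraries behind the G2/M difference were chiefly HFD 1 and, less far out, HFD 2 to HFD 4. The summed G2/M level was 347 CPM in HFD 1, 256 in HFD 2, 241 in HFD 3, 236 in HFD 4, 186 in HFD 5 and 199 in HFD 6, against 181 to 224 CPM in the 6 ND libraries. HFD 1 was the highest of all 18 libraries for 23 of 27 G2/M genes and 8 of 16 S genes, where it was the highest for 8.78% of all genes tested. It was above every ND library for 26 of 27 G2/M genes and 12 of 16 S genes, against 20.6% of all genes.

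Relative to the mean of ND, HFD 1 held a median of 1.88 times the level over the G2/M genes, from 1.04 times for Cenpa to 3.65 times for Ccnb1, and a median of 1.19 times over the S genes. The median G2/M log2 difference from ND was 0.93 in HFD 1, 0.38 in HFD 2, 0.28 in HFD 3, 0.41 in HFD 4, -0.11 in HFD 5 and -0.01 in HFD 6. For the S genes it was 0.25 in HFD 1 and at most 0.10 in the other HFD libraries. The summed S level averaged 762 ± 36.7 CPM in HFD and 743 ± 15.8 CPM in ND, and the summed G2/M level 244 ± 56.8 CPM in HFD and 202 ± 18.1 CPM in ND (SD, n = 6 each). Most of the S sum was the MCM subunits (524 CPM in HFD, 506 in ND) and Pcna with Uhrf1 (133 and 138 CPM). Log2 fold changes of HFD against ND were 0.02 to 0.15 for the MCM subunits, -0.07 for Pcna and 0.0047 for Uhrf1. The other S genes, which add little to the sum, ran from -0.17 for Ccne2 to 0.32 for Tk1.

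**Figure D2:**
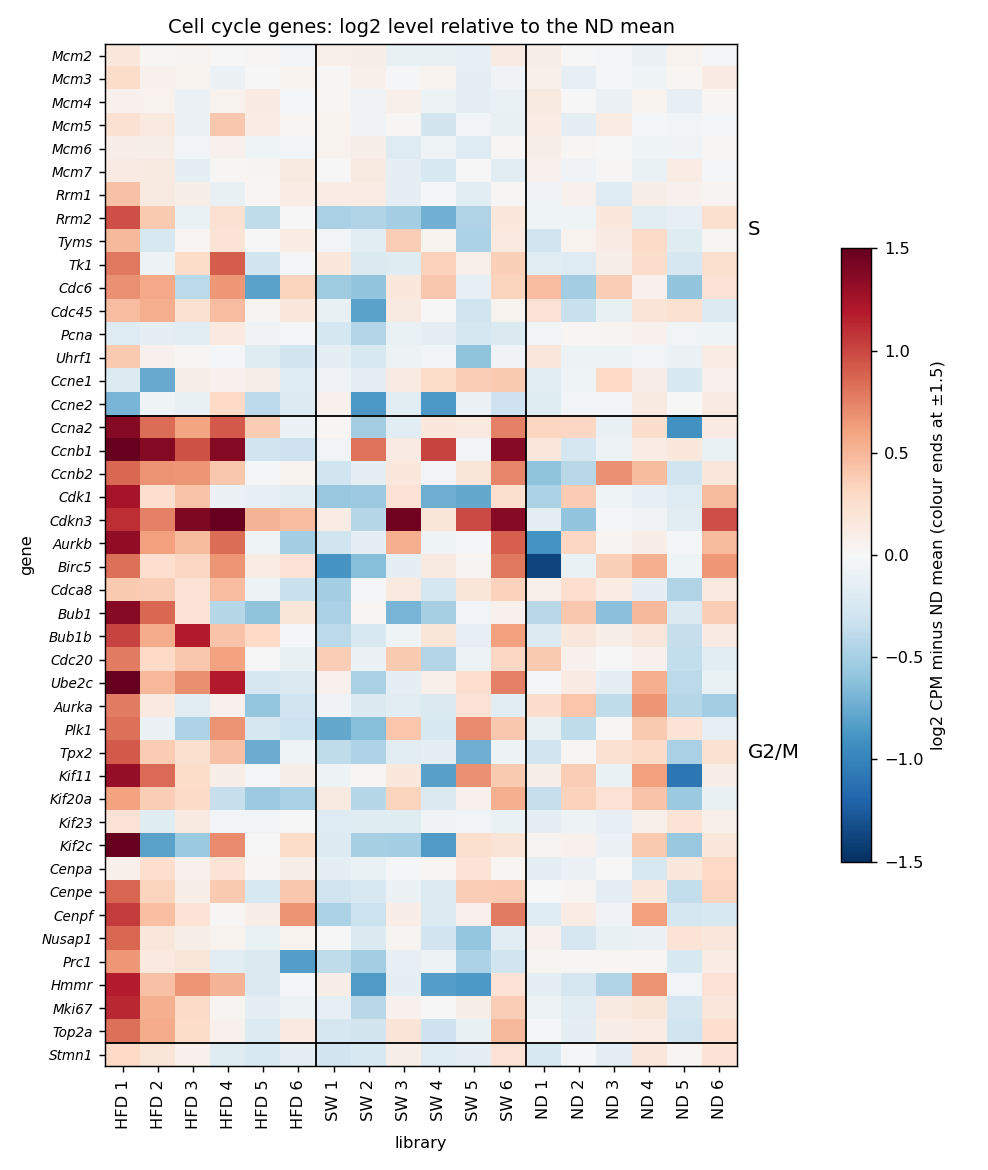
Each row is a gene and each column a library; colour gives log2 CPM minus the mean of the 6 ND libraries, and colours end at 1.5 in either direction. Most G2/M rows are darkest in HFD 1, while the rows of the 6 MCM subunits depart by at most 0.40 in any library and those of Rrm2, Tk1, Cdc6, Cdc45, Ccne1 and Ccne2 show stronger colour in single libraries.

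Without HFD 1, the median G2/M log2 fold change of HFD against ND was 0.17 and 22 of 27 genes were above 0, and the summed G2/M level averaged 224 ± 29.6 CPM (SD, n = 5). Within replicates 3 to 6, with 4 libraries per diet, the median was 0.01 and 15 of 27 genes were above 0. Within replicates 1 and 2, with 2 libraries per diet, it was 0.84 and all 27 genes were above 0, and Top2a passed the test there at 0.79 (edgeR adjusted p = 0.0485). Not all genes followed the median: within replicates 3 to 6 the log2 fold change was still 0.63 for Ccnb1, 0.58 for Ccna2, 0.52 for Bub1b and 0.91 for Cdkn3, while it was -0.04 for Mki67 and 0.01 for Top2a. Over the S genes the median was 0.02 without HFD 1, 0.03 without ND 2, 0.00 within replicates 3 to 6 and 0.19 within replicates 1 and 2.

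**Figure D3:**
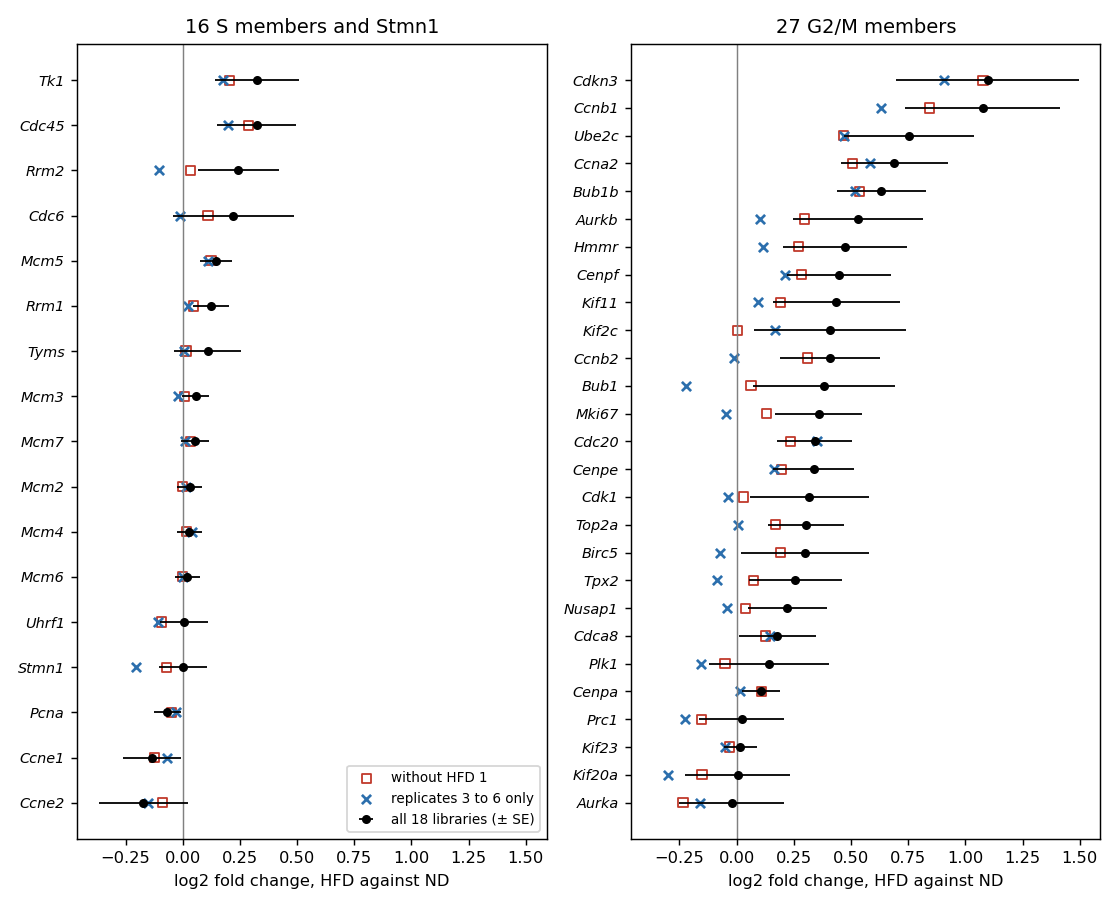
Log2 fold change of HFD against ND for each gene, S genes with Stmn1 on the left and G2/M genes on the right, from all 18 libraries (dots, with SE), without HFD 1 (squares) and within replicates 3 to 6 (crosses). Most G2/M squares and crosses lie closer to 0 than the dots, with medians of 0.17 and 0.01 against 0.34.

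Markers of other cells that could carry mitotic messages were read beside these values. Erythroid genes (11, led by Hbb-bs and Hba-a1) summed to 17.1 to 348 CPM in HFD libraries, 36.6 to 95.9 in SW libraries and 19.3 to 46.8 in ND libraries. HFD 1, at 169 CPM, was the second highest of the 18 after HFD 4. Most of that was globin message, with Hbb-bs at 71.4 CPM and Hba-a1 at 56.4 CPM. In HFD 1, 8 of the 11 were above every ND library. Klf1 and Epor, at 0.340 and 0.136 CPM, were below their ND means of 0.412 and 0.342 CPM. Myeloid genes (10, led by Lyz2) summed to 14.8 to 23.3 CPM in HFD, 9.20 to 19.7 in SW and 8.27 to 14.3 in ND. HFD 1 was again second highest, at 22.3 CPM. In it 4 of the 10 were above every ND library, and 2 of these (Lyz2 and Csf1r) were highest of the 18. Cd14 and Ms4a3 were at 0 in HFD 1, as in other libraries of every diet. Germinal-centre B genes (4) summed to 11.3 to 19.2 CPM in HFD, 11.1 to 14.8 in SW and 11.1 to 17.3 in ND. HFD 1 was the highest through Gcsam alone, at 11.7 CPM against an ND mean of 5.03 CPM. S1pr2 and Mybl1, at 6.59 and 0.951 CPM in HFD 1, were below their ND means of 7.72 and 1.21 CPM. Rgs13 was at 0 in HFD 1 and in every other library but ND 6.

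In the other lists the sum of HFD 1 was not among the highest 3 of the 18. B cell genes (11) summed to 538 to 692 CPM in HFD, 514 to 631 in SW and 490 to 548 in ND, and HFD 1 ranked 12 of 18. Plasma cell genes (6) summed to 41.6 to 68.1 CPM in HFD, 39.1 to 57.5 in SW and 38.2 to 49.9 in ND, with HFD 1 at rank 4. Mzb1 and Tnfrsf17 were at 0 in HFD 1, as in most of the 18 libraries. NK cell genes (5) summed to 127 to 153 CPM in HFD, 116 to 164 in SW and 119 to 151 in ND, with HFD 1 at rank 13. These 3 sums were each mostly 1 gene in HFD 1: Ighm (495 CPM), Xbp1 (35.2 CPM) and Eomes (100 CPM). Some single genes differed from the sums. In HFD 1, 1 of 11 B cell genes (Ms4a1) and 1 of 5 NK genes (Tyrobp) were highest of the 18 libraries. Others of these lists were low in it. The NK gene Klre1 was lowest of the 18, at 10.7 CPM, and Klrb1c, at 1.63 CPM, was below every ND library. Ncr1 and the B cell genes Fcer2a and Blk were at 0 in HFD 1, and each was also at 0 in some other libraries. Of the 6 plasma cell genes, 2 (Jchain and Irf4) were above every ND library in HFD 1. CD4 T cell genes (5) summed to 16.2 to 33.2 CPM in HFD, 10.4 to 16.9 in SW and 12.2 to 17.0 in ND, with HFD 1 at rank 7. The CD8 T cell sum was lowest of the 18 in HFD 1. Genes of effector CD8 T cells (12, such as Gzmb, Prf1 and Ccl5) summed to 1264 to 1664 CPM in HFD, 1033 to 1399 in SW and 1028 to 1210 in ND, with HFD 1 at rank 7 and the lowest of its diet. Single effector genes differed from that sum, which Il2rb and Ccl5 dominate: 7 of the 12 were above every ND library in HFD 1, and Gzmb was highest of the 18 there, at 32.3 CPM, against at most 7.13 CPM in ND libraries.

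The genes of these lists were also tested in HFD against ND over all libraries. Of the 12 effector genes, 5 rose (Id2, Cd44, Ccl5, Zeb2 and Cx3cr1; edgeR adjusted p = 0.00561 to 0.0455), where 1.62% of all genes passed, 10 were higher at an unadjusted p under 0.05, and the median log2 fold change was 0.47. No erythroid or myeloid gene passed, but 6 of 7 erythroid and 4 of 5 myeloid genes tested were higher at an unadjusted p under 0.05, against 7.79% of all genes, with medians of 1.98 and 0.88. In the B cell and CD4 T cell lists 1 gene each rose. At an unadjusted p under 0.05 (edgeR), 2 of 3 plasma cell and 2 of 5 CD4 T cell genes tested were higher, with medians of 0.58 and 0.42. By that measure 1 of 6 B cell genes tested was higher, and no NK or germinal-centre gene was. The part of any of these cells in the G2/M values was not tested.

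The comparison of SW with ND asks what remained after 6 weeks back on a normal diet. No gene of the 44 passed the test, where 0.0146% of all genes (2 of 13690) did; 2 of the 44 were lower and none was higher at an unadjusted p under 0.05, by the same edgeR test. That share is near the 3.37% of all genes that were lower, and 3.44% of all genes were higher. The summed G2/M level was 197 ± 28.9 CPM in SW and 202 ± 18.1 CPM in ND, and the summed S level 708 ± 21.1 CPM in SW and 743 ± 15.8 CPM in ND (SD, n = 6 each). The median log2 fold change was -0.00 over the G2/M genes, 13 of 27 of them above 0, and -0.05 over the S genes, 2 of 16 of them above 0. These counts moved with single libraries: without SW 6 the G2/M median was -0.12 with 4 of 27 above 0, and without ND 5 it was -0.07 with 8 of 27. For the S genes 6 of 16 were above 0 without SW 5, 5 without ND 1, and 4 without SW 1, SW 2, SW 3, ND 2, ND 4 or ND 5.

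Pcna (ENSMUSG00000027342, chr2:132249162-132253314) was the gene with the clearest separation. It was at 86.2, 98.9 and 109 CPM in SW libraries, against 112, 117 and 122 CPM in ND libraries. Every SW library was below every ND library, as for 0.416% of all genes tested, and no other member had groups apart in any of the 3 comparisons. Among all genes, groups were apart with the first diet higher for 0.672% in HFD against ND, 0.299% in SW against ND and 0.373% in SW against HFD, and with it lower for 1%, 0.416% and 0.409% in the same comparisons. The log2 fold change was -0.24 (SE 0.06; edgeR adjusted p = 0.147). It passed under 3 of 25 alternatives, DESeq2 among them (adjusted p = 0.0323). Over all 25 the adjusted p ran from 0.0215 to 0.833, and the fold change from -0.36 to -0.18. HFD libraries, at 102, 110 and 129 CPM, overlapped the other diets.

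Rrm2 (ENSMUSG00000020649, chr12:24708241-24714146) was at 6.54, 7.82 and 12.2 CPM in SW libraries, against 9.75, 10.4 and 12.9 CPM in ND libraries. SW 6 alone reached into the ND range, and the other 5 SW libraries were below it. Its log2 fold change was -0.39 (SE 0.18; edgeR adjusted p = 0.705). Among the S genes that remain, Ccne1 was at 22.7, 29.0 and 33.1 CPM in SW libraries, against 21.6, 25.2 and 31.2 CPM in ND libraries (0.16, SE 0.13), and Ccne2 at 1.98, 3.15 and 3.90 CPM in SW libraries, against 3.26, 3.69 and 4.09 CPM in ND libraries (-0.34, SE 0.20). The fold change of Uhrf1 was -0.19 (SE 0.11), and those of the 6 MCM subunits ran from -0.07 to -0.01.

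Among G2/M genes the smallest p-values in SW against ND belonged to Ccnb1, Cdkn3 and Kif23. Ccnb1 was at 1.40, 2.12 and 3.93 CPM in SW libraries, against 1.19, 1.47 and 1.63 CPM in ND libraries (log2 fold change 0.69, SE 0.35; edgeR adjusted p = 0.744). SW 2, SW 4 and SW 6 were above every ND library and the other 3 were within their range. Cdkn3 was at 0.33, 0.85 and 1.59 CPM in SW, against 0.28, 0.45 and 1.10 CPM in ND (0.79, SE 0.41; edgeR adjusted p = 0.762). Kif23, a kinesin of the central spindle, was at 28.3, 29.5 and 31.6 CPM in SW, against 29.3, 32.4 and 37.3 CPM in ND (-0.13, SE 0.07; edgeR adjusted p = 0.817). Both of these genes had overlapping groups.

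Of the other G2/M genes of wide use, none passed the test in SW against ND. Mki67 was at 19.9, 27.1 and 34.2 CPM in SW libraries, against 22.2, 27.1 and 30.2 CPM in ND libraries (log2 fold change 0.00, SE 0.19), and Top2a at 20.6, 22.6 and 35.9 CPM in SW, against 20.8, 26.3 and 30.5 CPM in ND (-0.02, SE 0.17). Ccna2 was at 3.04, 4.72 and 7.59 CPM in SW libraries (0.06, SE 0.24), Bub1b at 3.43, 4.30 and 7.11 CPM (0.03, SE 0.20) and Cdc20 at 5.46, 8.11 and 9.83 CPM (0.09, SE 0.17). The highest SW library was SW 6 for Mki67, Top2a, Ccna2 and Bub1b. Cdk1 was at 1.61, 1.89 and 3.39 CPM in SW (-0.35, SE 0.27), Birc5 at 2.26, 4.14 and 7.52 CPM (-0.14, SE 0.29) and Plk1 at 2.42, 4.59 and 6.94 CPM (0.08, SE 0.26). All of these groups overlapped with ND, and the edgeR adjusted p-values ran from 0.902 to 0.999.

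SW 6 stood above the other switched libraries. Its G2/M sum was 246 CPM, against 167 to 206 CPM in the other 5, and its median G2/M log2 difference from ND was 0.38. It exceeded every ND library for 15 of 27 G2/M genes and 3 of 16 S genes, against 16.7% of all genes tested. Its S sum, 723 CPM, was within the range of the other switched libraries.

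**Figure D4:**
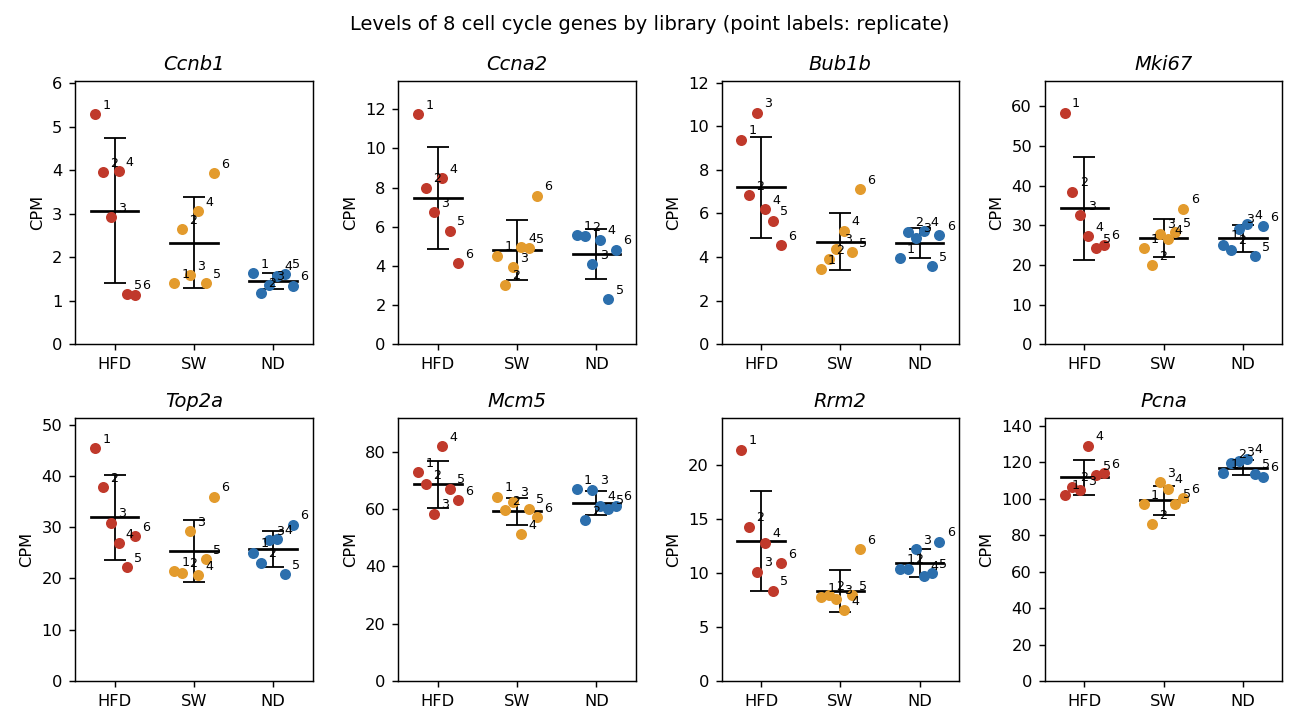
CPM of 5 G2/M genes (Ccnb1, Ccna2, Bub1b, Mki67 and Top2a) and 3 S genes (Mcm5, Rrm2 and Pcna) in each library, with replicate numbers, means and SD (n = 6 per diet). HFD 1 is highest for Ccnb1, Ccna2, Mki67, Top2a and Rrm2, HFD 3 for Bub1b, and Pcna is lower in every SW library than in any ND library.

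The comparison of SW with HFD asks how the switch differed from continued high fat diet. None of the 44 genes passed (0.124% of all genes did, edgeR), and 12 were lower and 1 was higher in SW at an unadjusted p under 0.05, where 5.64% of all genes were lower and 5.43% higher. The 12 were 4 S genes (Rrm2, Mcm5, Pcna and Cdc45) and 8 G2/M genes (Bub1b, Hmmr, Tpx2, Ccna2, Cdk1, Nusap1, Ube2c and Bub1), and the higher gene was Ccne1. The median log2 fold change was -0.36 over G2/M genes, 26 of 27 of them below 0, and -0.15 over S genes, 15 of 16 of them below 0. This comparison shares the HFD libraries with that of HFD against ND.

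Rrm2 had the smallest p, at 6.54, 7.82 and 12.2 CPM in SW libraries, against 8.34, 11.8 and 21.4 CPM in HFD libraries. SW 6 lay among the HFD libraries and the other 5 SW libraries below them all. The log2 fold change was -0.64 (SE 0.18; edgeR adjusted p = 0.169). Mcm5 was at 51.2, 59.8 and 64.3 CPM in SW, against 58.4, 67.8 and 81.9 CPM in HFD (-0.21, SE 0.07; edgeR adjusted p = 0.249). Here the groups met only through HFD 3 and HFD 6, since the other HFD libraries were above every SW library. Ccne1 was at 22.7, 29.0 and 33.1 CPM in SW libraries, against 14.9, 24.2 and 26.9 CPM in HFD libraries (0.30, SE 0.13; edgeR adjusted p = 0.381), with 5 of 6 SW libraries above the HFD mean.

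Bub1b was at 3.43, 4.30 and 7.11 CPM in SW libraries, against 4.54, 6.51 and 10.6 CPM in HFD libraries (log2 fold change -0.61, SE 0.19; edgeR adjusted p = 0.234). Hmmr (ENSMUSG00000020330, chr11:40701395-40733422), a spindle-bound hyaluronan receptor, was at 1.05, 1.45 and 2.37 CPM in SW, against 1.72, 2.86 and 4.75 CPM in HFD (-0.87, SE 0.28; edgeR adjusted p = 0.235). Tpx2 (ENSMUSG00000027469, chr2:152847964-152895321) was at 3.23, 4.49 and 5.15 CPM in SW, against 3.18, 6.79 and 10.5 CPM in HFD (-0.61, SE 0.21; edgeR adjusted p = 0.259). In each of the 3 genes all 6 SW libraries lay below the HFD mean, and the groups overlapped.

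This comparison also moved when HFD 1 was left out. Without it the median G2/M log2 fold change of SW against HFD was -0.20, within replicates 3 to 6 it was -0.02, and within replicates 1 and 2 it was -1.15, where Top2a passed the test at -0.98 (edgeR adjusted p = 0.0188). The S median was -0.09 within replicates 3 to 6. Rrm2 was at -0.43 without HFD 1 and at -0.28 within replicates 3 to 6, and Mcm5 at -0.19 and -0.22 under the same settings. In the test of any difference among the 3 diets, none of the 44 passed (0.898% of all genes did), 11 had an unadjusted p under 0.05 (13.3% of all genes did), and the smallest edgeR adjusted p was 0.0814, for Pcna.

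A further 4 lists covered other genes of the cycle, and they yielded 3 calls in HFD against ND and none in either comparison of SW. Of 51 other mitosis genes tested, 2 rose in HFD, Racgap1 and Cdc25b, and the median log2 fold change was 0.23. Of 45 other replication genes 1 fell, Slbp, and the median was 0.06. None of 13 genes of G1 entry and none of 18 brakes on the cycle passed the test, where 1.62% of all genes did.

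Racgap1 (ENSMUSG00000023015, chr15:99620496-99651656), the GTPase-activating subunit of the centralspindlin complex that Kif23 also belongs to, was at 134 to 155 CPM in HFD libraries, 106 to 147 CPM in SW libraries and 108 to 127 CPM in ND libraries. Every HFD library was above every ND library, and HFD 1 was the lowest of the 6. Its mean was 146 ± 7.19 CPM in HFD and 116 ± 7.38 CPM in ND (SD, n = 6 each), with a log2 fold change of 0.33 (SE 0.06; edgeR adjusted p = 0.00878). In SW against HFD it was -0.26 (SE 0.06; edgeR adjusted p = 0.0971).

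Cdc25b (ENSMUSG00000027330, chr2:131186949-131198497), a phosphatase that activates cyclin-dependent kinases, was at 73.3 to 93.6 CPM in HFD libraries, 70.5 to 78.0 CPM in SW libraries and 63.7 to 75.3 CPM in ND libraries. HFD 1 was the lowest HFD library and the only one within the ND range. Its log2 fold change in HFD against ND was 0.27 (SE 0.06; edgeR adjusted p = 0.0173). Racgap1 and Cdc25b each passed under 24 of 25 alternatives and were lost within replicates 1 and 2, with 2 libraries per diet.

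Slbp (ENSMUSG00000004642, chr5:33634952-33652574), which binds the stem-loop of histone messages in S phase, was at 45.5 to 53.4 CPM in HFD libraries, 45.6 to 56.5 CPM in SW libraries and 56.5 to 61.6 CPM in ND libraries. Every HFD library was below every ND library. The log2 fold change in HFD against ND was -0.24 (SE 0.06; edgeR adjusted p = 0.0340), and in SW against ND -0.25 (SE 0.06; edgeR adjusted p = 0.123). The first of these passed under 17 of 25 alternatives. It was lost within replicates 1 and 2 and when HFD 4, HFD 6 or any of ND 2 to ND 6 was left out, with adjusted p-values of 0.0509 to 0.0723 in those 7 fits.

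**Figure D5:**
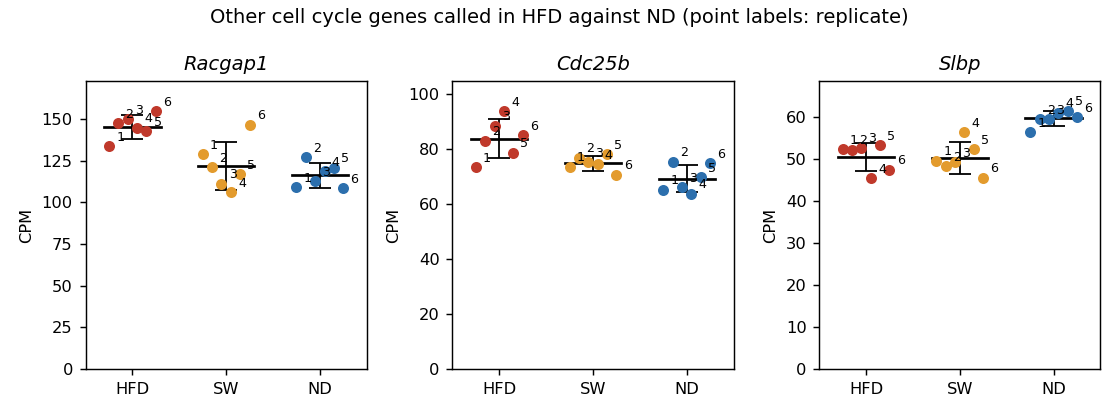
CPM of Racgap1, Cdc25b and Slbp in each library, with replicate numbers, means and SD (n = 6 per diet). Racgap1 and Slbp show HFD and ND libraries apart, and HFD 1 is the lowest HFD library for Racgap1 and Cdc25b.

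HFD 1 was the highest of the 18 libraries for 27 of 51 other mitosis genes, 10 of 45 other replication genes, 3 of 13 G1 genes and 2 of 18 brakes. It was the highest for 8.78% of all genes tested, and the count of brakes is near that share. The genes with the smallest p in the lists without a call were E2f8, an E2F repressor, at a log2 fold change of 0.81 (SE 0.35), Ccnd2, a cyclin D, at -0.20 (SE 0.09), Tob2, an antiproliferative protein gene, at -0.30 (SE 0.10), and Klf2, a quiescence factor of T cells, at 0.31 (SE 0.11), all in HFD against ND. Their edgeR adjusted p-values were 0.266, 0.278, 0.163 and 0.176. In the list with Slbp, Pola1, the catalytic subunit of DNA polymerase alpha, was next, at 0.30 (SE 0.11; edgeR adjusted p = 0.154).

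In SW against ND the smallest p-values in these lists were those of E2f1 (log2 fold change -0.35), Cdk2 (-0.15), Tob2 (-0.36), Btg2 (-0.26), Ckap2l (-0.73), Dlgap5 (0.31) and Orc6 (-0.21) beside Slbp. In SW against HFD they were those of E2f1 (-0.53), E2f7 (-1.16), Tob1 (-0.23), Btg1 (-0.19), Ckap2l (-0.87), Rpa1 (-0.20) and Pola1 (-0.29) beside Racgap1. E2f1, the activating E2F factor, averaged 6.69 CPM in HFD, 4.61 in SW and 5.87 in ND. None of these genes passed in the comparison named, with edgeR adjusted p-values from 0.0971 for Racgap1 in SW against HFD up to 0.733 for Cdk2 in SW against ND.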

How the data were processed

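RNA from 18 libraries was measured by RNA-seq of poly-A messenger RNA primed with random hexamers, per the labels' protocols; per the submitters' processing notes fastp was used with the builds GRCm38 and mm10, and no source used here names the aligner, the counter or the annotation. The authors deposited raw counts per gene and FPKM values, 1 file each per library. For 9534 genes above 50 counts in every library, FPKM equalled the count times a gene and a library factor (largest relative departure 2.5e-09). GENCODE M21 (GRCm38) symbols matched 52125 of 56748 IDs.

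The test on counts was quasi-likelihood F in edgeR 4.0.16 (R 4.3.3; TMM, filterByExpr, robust; checked on simulated data), with diet as the only factor in 1 fit of 18 libraries. Genes with a Benjamini-Hochberg adjusted p under 0.05 over 13690 genes were called. SE is that of the log2 fold change; CPM uses TMM-scaled totals. The 44 genes, phases and lists were chosen with earlier results of these data known; 1 gene of the germinal-centre list is not reported here and was left out of its sum. Named genes are a set of 17 members, the smallest p-values in each comparison and list, and called genes. Alternatives were DESeq2 1.42.0, RLE size factors, no filter on low counts, a replicate block, sets of replicates, and leaving out each library.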

Additional observations from a re-analysis of the deposited data

Results flagged for a closer look

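Each of the 44 genes and the summed S and G2/M levels were examined in each diet on the log2 CPM scale, 138 tests in all. In 9 of them the lowest or highest of the 6 libraries stood apart, its gap to the nearest library taking more than 0.625 of the whole range; chance alone flags about 1 in 20 groups. HFD 1 was high for Nusap1, which bundles spindle microtubules, at 7.88 CPM with the next HFD library at 4.81 (gap 0.715 of the range). HFD 2 was low for Ccne1, at 14.9 CPM against 21.9 (0.65). In the switched diet, SW 6 was high for Rrm2, at 12.2 CPM against 7.93 (0.691), and SW 5 was low for Uhrf1, at 13.5 CPM against 17.5 (0.657).

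The other 5 lay among ND libraries. ND 1 was low for 2 subunits of the chromosomal passenger complex, Birc5 at 1.57 CPM against 3.98 (0.626) and Aurkb at 1.19 CPM against 2.30 (0.641). ND 5 was low for Ccna2 at 2.30 CPM against 4.09 (0.646) and for Prc1, a midzone protein gene, at 3.92 CPM against 4.68 (0.722). ND 6 was high for Cdkn3, at 1.10 CPM against 0.481 (0.637). HFD 1 had the highest level of 23 G2/M genes, and only for Nusap1 did its gap pass this measure among the 6 HFD libraries.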

How the results depend on the processing

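Low counts and 6 libraries per diet limit the G2/M values. Leaving out 1 library gave 89 (without ND 5) to 301 calls in HFD against ND, 0 (SW 2, ND 1, ND 3 or ND 5) to 16 in SW against ND, 0 (HFD 2, HFD 6, SW 3, SW 4 or SW 5) to 44 in SW against HFD and 62 (HFD 6 or ND 5) to 220 for any difference, the highest of each without HFD 1, and 0 to 1 members called in HFD against ND (Ccnb1 without HFD 5). In the same fits the HFD against ND log2 fold change ran from -0.0502 to 0.24 for Plk1, -0.0705 to 0.0442 for Stmn1 and -0.0912 to 0.0568 for Uhrf1. Calls, in the order of those 4 comparisons, were 479, 61, 112 and 438 with DESeq2, 598, 49, 138 and 469 with the replicate block, 535, 22, 116 and 444 with the 2 sets of replicates (1 and 2, 3 to 6) as a factor, and 5, 0, 2 and 5 within replicates 1 and 2. Same-numbered libraries correlated at -0.03 to 0.22, over 0.1 for 7 of 18 pairs. In 7 of 18 the best-correlated of the 6 libraries of the other diet had the same number. The labels state no pairing, so the main fit did not pair libraries by number, and whether the numbers pair them is not known. Without a filter the last 3 of the 4 comparisons gave 31, 53 and 216 calls. SW against ND gave 1 with RLE and 5 within replicates 3 to 6. The member called in SW against ND was Pcna (1 each with DESeq2, adjusted p = 0.0323, the block, 0.0215, and the factor, 0.0342). For any difference there were 2 with DESeq2 (Pcna, Bub1b), 1 with the block and with the factor (Pcna), 1 without a filter (Bub1b) and 1 within replicates 1 and 2 (Top2a, also the 1 called there in HFD against ND and in SW against HFD). Within replicates 1 and 2 the medians were 0.19 (S) and 0.84 (G2/M) in HFD against ND, -0.26 (G2/M) in SW against ND and -1.15 (G2/M) in SW against HFD; within replicates 3 to 6 the last comparison gave -0.0887 (S) and -0.0242 (G2/M). Signs turned in HFD against ND within replicates 3 to 6 for Cdc6 (-0.0124), Rrm2 (-0.10), Uhrf1 (-0.11), Stmn1 (-0.20), Mki67 (-0.0447), Cdk1 (-0.0372), Birc5 (-0.0743) and Plk1 (-0.16), without a filter for Uhrf1 (-0.0052) and Stmn1 (-0.0072), and for Stmn1 with DESeq2 (-0.00065) and RLE (-0.00090). The cause was not tested.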
